A study of Mus musculus with 8 samples.

Results

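Sertoli cell-like cells (SCLCs) and testicular organoid-derived primordial germ cell-like cells (tod-PGCLCs), the somatic and the germline population made from mouse embryonic stem cells (ESCs) in one study, were compared by RNA sequencing. The comparison used 4 of the 8 libraries of the series, 2 of each population, and every gene with a mean count above 10 over those 4 libraries, which left 16786 of 46078 genes. Counts are given below in the order replicate 1 and replicate 2, and log2 differences are SCLCs minus tod-PGCLCs. The value after ± is an approximate standard error. It is the size of the log2 difference divided by the square root of edgeR's quasi-likelihood F statistic. A gene was called when the fold change was over 2 and the Benjamini-Hochberg adjusted p of edgeR's quasi-likelihood test was under 0.05.

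The SCLCs, deposited under the cell type testicular somatic cell-like cells, carried the genotype XY;tesco-cfp;Sf1. They came from the tc;Sf1ESC line, a single-colony derivative of tcESCs that took up an expression plasmid for mouse Sf1, and were sorted as CFP-positive cells at day 12 of differentiation in a testicular somatic cell culture with CHIR99021, BMP7 and FGF9 among its additives. The tesco-cfp reporter places CFP under the testis-specific enhancer of Sox9. The tod-PGCLCs carried the genotype XY;Prdm1-gfp, from another ESC line in which GFP reports Prdm1, and were sorted at day 6 from aggregates of tc;Sf1 somatic cells with epiblast-like cells in medium with CHIR99021. The study gives the second sorting marker as SSEA1 in one place and as CD49f in another. Both lines are labelled C57BL/6, and the other libraries of the series are 2 of tcESCs and 2 of tc;Sf1ESCs. Cell type, parental line, culture, age and sorting gate all changed together between the 2 populations, so their parts in any difference cannot be told apart. In sorted bulk samples, fewer cells of a type and less RNA per cell cannot be told apart either.

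In the embryo, Sertoli cells differentiate from the coelomic epithelium of the genital ridge once Sry switches on Sox9, and they then surround the germ cells and secrete the signals that keep them. Primordial germ cells arise in the proximal epiblast under BMP4, where Prdm1, Prdm14 and Tfap2c repress the somatic programme and restart part of the pluripotency network. Genes of meiosis and of the transposon-silencing piRNA pathway follow after the germ cells have entered the gonad.

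The 4 libraries held 26501628 and 29092453 counts on genes for SCLCs and 27538502 and 26559114 for tod-PGCLCs, so their totals were close. The TMM scaling factors were 0.96 and 0.96 for SCLCs and 1.04 and 1.04 for tod-PGCLCs, so raw counts compare only roughly. The 10 most abundant genes took 7.79% and 7.83% of counts in SCLCs against 5.26% and 5.30% in tod-PGCLCs. Replicates differed by more than sampling noise. A chi-square test between replicate counts, divided by its degrees of freedom, gave 28.0 for SCLCs and 9.06 for tod-PGCLCs, and log2 differences between replicates had an SD over genes of 0.52 and 0.38. The series describes the duplicates as biological, and how separate their cultures were is not stated.

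Genes of the Y chromosome went against the XY label of the tod-PGCLCs. Ddx3y, an RNA helicase, had 1297 and 1246 counts in SCLCs and 25 and 25 in tod-PGCLCs. Eif2s3y had 1029 and 716 against 63 and 51, and Kdm5d had 228 and 153 against 7 and 3. All 7 Y-linked genes tested were called higher in SCLCs, and Xist, which coats the inactive X chromosome in female cells, had 639 and 1108 counts in SCLCs and 156 and 242 in tod-PGCLCs. The tod-PGCLC libraries thus held few Y-linked counts and were not high in Xist. What this says of the sex chromosomes of the cells was not tested.

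The 2 populations differed widely. edgeR called 6233 genes, 37.1% of those tested, with 3255 (19.4%) higher in SCLCs and 2978 (17.7%) higher in tod-PGCLCs. Scaled by library totals instead of TMM, 2888 were higher in SCLCs and 3390 in tod-PGCLCs, which turned the balance around. The shares under TMM are the background for every list below. The median log2 difference over all genes was -0.00, and the groups' CPM (counts scaled to 1e+06 per library) did not overlap for 83.9% of genes, so a lack of overlap says little about any one gene. Somatic lists leaned to SCLCs, with 54 of 122 tested members higher there and 23 higher in tod-PGCLCs (153 listed, median log2 difference 0.64). Of those 54 members, 15 were basement membrane genes, whose products endoderm also lays down. Germline lists leaned to tod-PGCLCs, with 45 of 100 tested members higher there and 7 higher in SCLCs (113 listed, median -0.97). The pluripotency lists leaned further, with 39 of 55 tested members higher in tod-PGCLCs and 5 higher in SCLCs (median -1.90). Among lists of cell types, the largest share of calls was in primitive and visceral endoderm, where 27 of 32 tested members were higher in SCLCs and 3 in tod-PGCLCs, with a median of 4.51. Members and lists were chosen with earlier results of these data known, so these shares and their order depend in part on that choice.

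**Figure D1:**
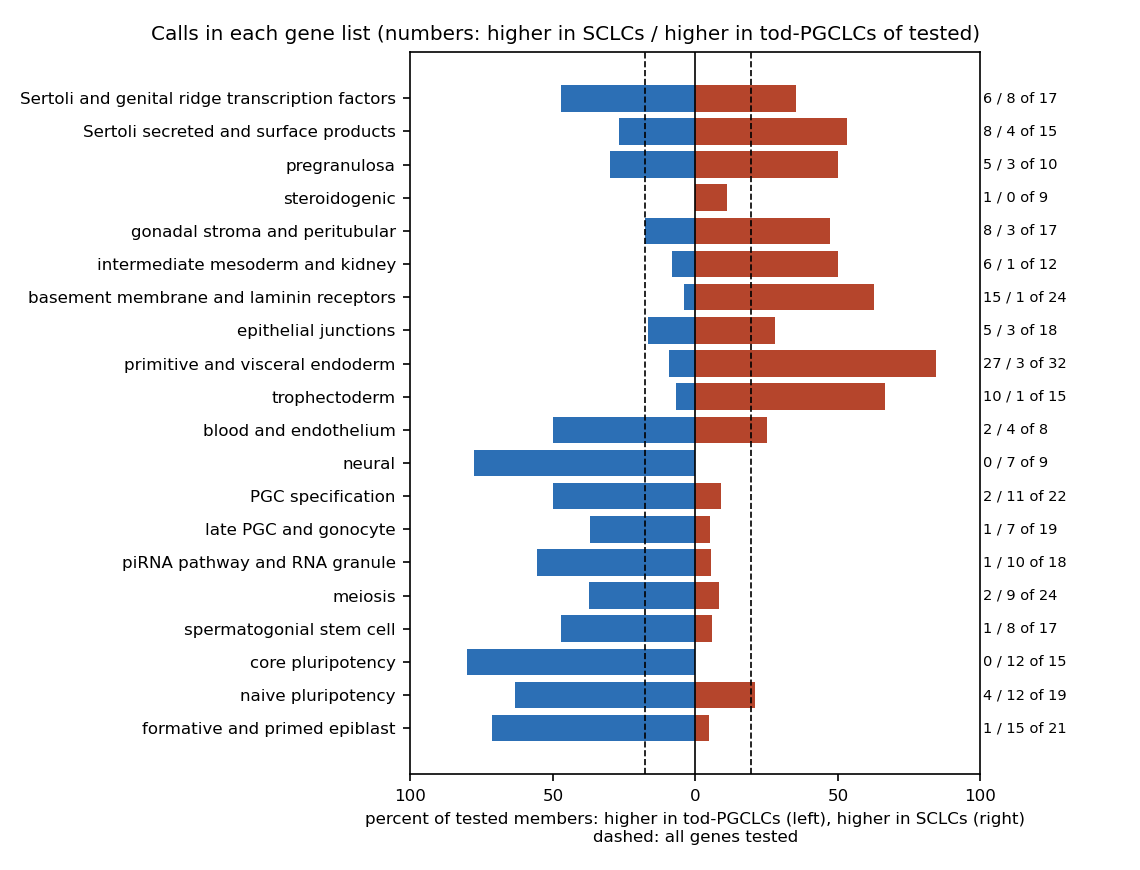
Percent of the tested members of each gene list that were called higher in SCLCs (red, to the right) or higher in tod-PGCLCs (blue, to the left), with the counts at the right margin. Dashed lines mark the shares over all genes tested, 19.4% and 17.7%; the endoderm list reaches 27 of 32 on the SCLC side and core pluripotency 12 of 15 on the tod-PGCLC side.

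The question for the SCLCs was which parts of the Sertoli programme set them apart from germline-like cells. Of 17 tested transcription factors of Sertoli cells and the genital ridge, 6 were higher in SCLCs and 8 in tod-PGCLCs (median -0.41), so the list was split. Gata4 is required for the genital ridge to thicken and is also a factor of primitive endoderm. It had 11011 and 12551 counts in SCLCs and 86 and 152 in tod-PGCLCs (log2 difference 6.71 ± 0.27, edgeR adjusted p = 3.2e-05). Nr5a1, which encodes SF1, had 341 and 535 counts against 6 and 5. Both SCLC libraries were far above both tod-PGCLC libraries for these genes. The SCLC line carries an Sf1 plasmid, and reads from it cannot be separated from those of the endogenous Nr5a1 gene. Emx2, needed for the urogenital ridge, had 266 and 430 counts against 3 and 1, a ratio of summed counts, scaled by library totals, of 169 with a 95% counting interval from 65.8 to 623. Cited2, a cofactor of WT1 and SF1 in the adrenogonadal primordium, had 8392 and 8402 counts against 2049 and 2121 (2.10 ± 0.10).

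Other members of that list ran the opposite way. Wt1, which maintains Sertoli identity, had 60 and 23 counts in SCLCs and 332 and 293 in tod-PGCLCs (-2.80 ± 0.46). Dmrt1, a guardian of the male fate that germ cells also express, had 945 and 387 against 2747 and 3243 (-2.06 ± 0.42). Nr0b1, which encodes DAX1 and is also a pluripotency gene, had 90 and 79 against 2440 and 2135 (-4.67 ± 0.16). All 3 were called higher in tod-PGCLCs without overlap of the libraries. Sox9, the driver of Sertoli fate and the gene whose enhancer was used for sorting, had 206 and 130 counts in SCLCs and 68 and 132 in tod-PGCLCs, and the groups overlapped (0.84 ± 0.43, edgeR adjusted p = 0.14). Sox9 passed both limits only without SCLC replicate 2 (1.19, adjusted p = 0.031 by edgeR), and it lies on chromosome 11, which is treated below. Sry had no count in any of the 4 libraries, and Lhx9, with 3 and 7 counts against 5 and 2, was too low to test.

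Secreted and surface products of Sertoli cells showed 8 of 15 tested members higher in SCLCs and 4 higher in tod-PGCLCs (median 1.32), while 10 of the 25 listed were too low to test. Vnn1, a pantetheinase of the fetal testis, had 1091 and 1798 counts against 45 and 32 (5.30 ± 0.29). Inha, the alpha subunit of inhibin, had 210 and 270 against 35 and 35 (2.85 ± 0.26). Ctsl, a cathepsin with many other sources, had 52462 and 81530 against 6520 and 6271 (3.46 ± 0.19). Inhbb, a beta subunit of inhibin, had 170 and 397 against 97 and 59 (1.93 ± 0.43), a call lost without tod-PGCLC replicate 2 (1.63, edgeR adjusted p = 0.051). Amh, Dhh and Fshr were low in both populations. Amh, the anti-Müllerian hormone, had 10 and 22 counts in SCLCs and 19 and 24 in tod-PGCLCs (edgeR adjusted p = 0.54). Dhh, the hedgehog ligand of Sertoli cells, had 5 and 1 against 17 and 12, and Fshr, the receptor of follicle-stimulating hormone, had none in the 4 libraries. Sertoli markers thus went both ways in this comparison with germline-like cells. Gata4, Nr5a1, Emx2, Cited2, Vnn1 and Inha were called higher in SCLCs, and the Nr5a1 counts may include reads from the plasmid. Against the SCLC label, Sry and Fshr were absent, Amh and Dhh were low, Sox9 was not called, and Wt1 and Dmrt1 were higher in tod-PGCLCs.

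Lists for the other cells of a gonad gave mixed results. Steroidogenic genes had 1 call among 9 tested members, for Cyp17a1, the enzyme that opens the androgen branch, with 35 and 56 counts in SCLCs and none in tod-PGCLCs, at least 14.6-fold higher against 3 counts per library. Star, the cholesterol transporter of steroidogenic cells, had 148 and 233 counts against 212 and 191, and Cyp11a1, which makes pregnenolone, had 5 and 37 against 10 and 3. Neither was called in the fit of all 4 libraries, and Cyp11a1 passed without SCLC replicate 1 (2.51, adjusted p = 0.010 by edgeR). Of 10 tested pregranulosa genes, which mark the ovarian counterpart of Sertoli cells, 5 were higher in SCLCs and 3 in tod-PGCLCs (median 0.90). Runx1, a runt factor of fetal granulosa cells on chromosome 16, had 1983 and 2581 counts against 51 and 112 (4.88 ± 0.34), and Wnt4, a signal of the ovarian pathway, had 64 and 100 against 17 and 17 (2.34 ± 0.36). Rspo1, which amplifies WNT signals, had 18 and 39 against 72 and 91 (-1.44 ± 0.41), a call lost without tod-PGCLC replicate 2 (-1.25, edgeR adjusted p = 0.12). Foxl2, the ovarian determinant, was too low to test, with 8 and 6 counts against 7 and 8. Markers of gonadal stroma had 8 of 17 tested members higher in SCLCs and 3 higher in tod-PGCLCs. Pdgfra, a growth factor receptor of mesenchyme and also of primitive endoderm, had 19491 and 25364 counts against 90 and 80 (8.12 ± 0.16). Nr2f2, a nuclear receptor of interstitial cells, had 327 and 329 against 86 and 93 (1.96 ± 0.21). Of the intermediate mesoderm and kidney genes 6 of 12 were higher in SCLCs, among them Pax2, a paired-box factor of the nephric lineage, with 77 and 97 counts against 12 and 5. Lhx1, another early gene of that mesoderm, had 13 and 28 counts against 135 and 447 and was higher in tod-PGCLCs.

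**Figure D2:**
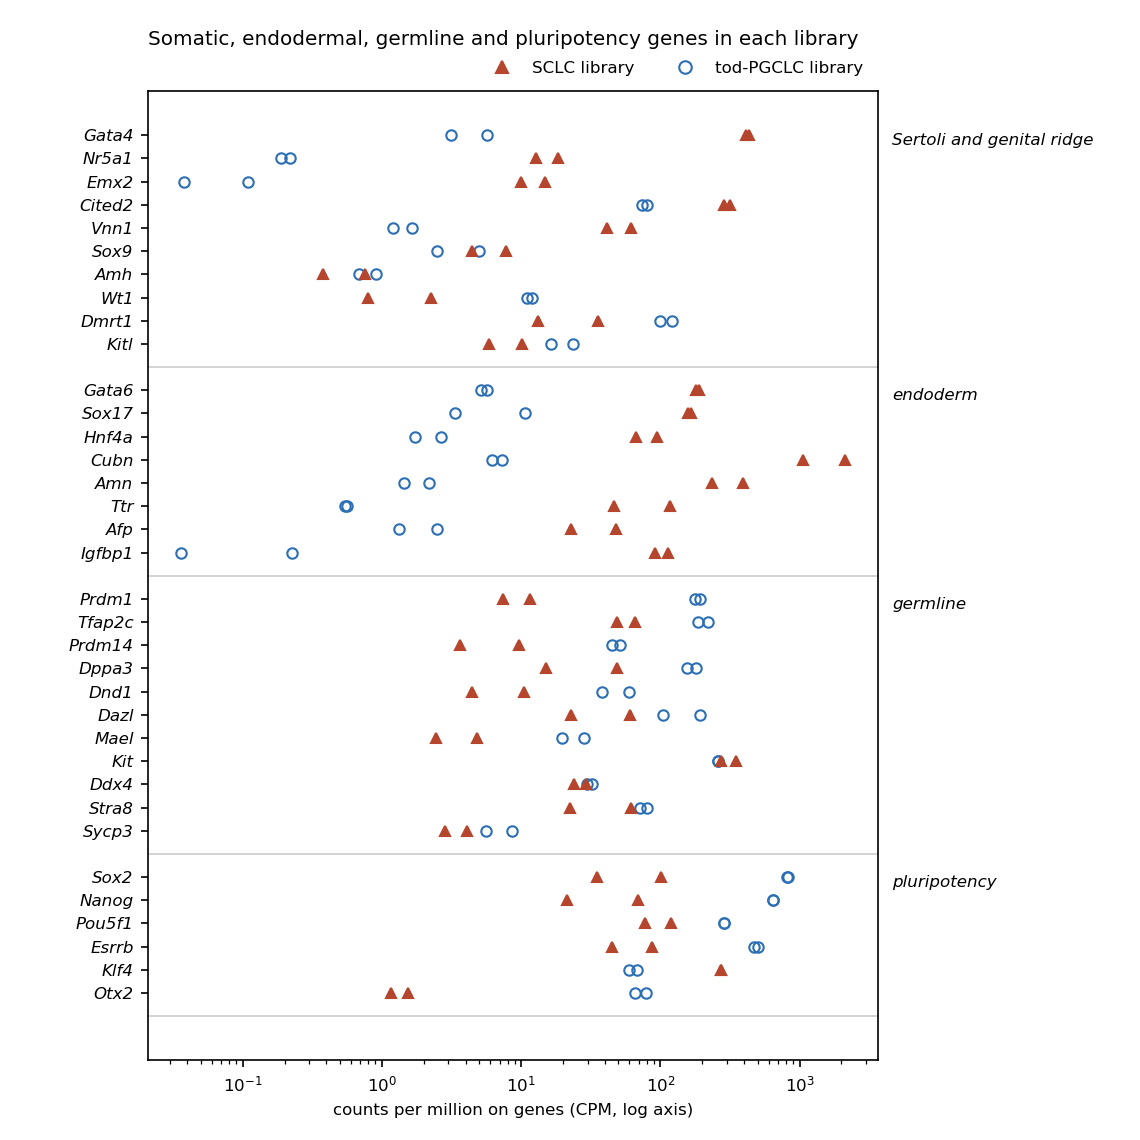
Level of genes named in the text in each of the 4 libraries, in CPM on a log axis. Triangles are the 2 SCLC libraries and open circles the 2 tod-PGCLC libraries; Gata4 and the endoderm genes stand far to the right in SCLCs, Sox9 and Amh overlap, and Prdm1, Sox2 and Nanog stand to the right in tod-PGCLCs.

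Primitive and visceral endoderm are extraembryonic layers of the early embryo that take up and secrete nutrients and lay down basement membrane. Of the 36 listed members 27 were higher in SCLCs, 3 were higher in tod-PGCLCs, 2 were not called and 4 were too low to test. Gata6, the factor that specifies primitive endoderm, had 4802 and 5488 counts in SCLCs and 143 and 151 in tod-PGCLCs (5.21 ± 0.11). Sox17, which acts beside it, had 4436 and 4618 against 92 and 282 (4.67), and Hnf4a, the nuclear receptor of visceral endoderm, had 1773 and 2749 against 73 and 46 (5.32 ± 0.27). Neither tod-PGCLC library came near an SCLC library for any of these factors.

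Other members of the list act in uptake or are secreted. Cubn, the endocytic receptor cubilin, had 27982 and 61312 counts in SCLCs and 170 and 194 in tod-PGCLCs (256-fold in the fit). Its partner Amn had 6273 and 11325 against 40 and 58 (7.55 ± 0.35), and the adaptor Dab2 had 21015 and 36968 against 273 and 317 (6.69). These 3 genes were called higher in SCLCs without overlap of the libraries. Ttr, which carries thyroid hormone and retinol, had 1240 and 3411 counts against 15 and 15 (7.32 ± 0.59). Afp, the fetal plasma protein alpha-fetoprotein, had 604 and 1400 against 68 and 35 (4.35 ± 0.47), and Igfbp1, a secreted binder of insulin-like growth factors on chromosome 11, had 2993 and 2646 against 1 and 6 (9.69 ± 0.35). The 3 exceptions were Cer1, Lefty1 and Foxa1, of which the first and second mark the anterior visceral endoderm. Cer1, which blocks nodal, had 0 and 1 counts in SCLCs and 73 and 337 in tod-PGCLCs, a scaled ratio of 421 (95% counting interval 75.2 to 16682). Lefty1, another inhibitor of nodal, had 142 and 50 against 3711 and 4171 (-5.25 ± 0.45). Foxa1, a forkhead factor, had 33 and 56 against 75 and 159 (-1.33 ± 0.46), a call lost without SCLC replicate 1 (-1.05, edgeR adjusted p = 0.10) or without tod-PGCLC replicate 2 (-0.66, 0.32).

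The summed level of the whole endoderm list was 5665 and 8366 CPM in SCLCs and 985 and 1018 CPM in tod-PGCLCs, with 1 of 36 members at 0 in both tod-PGCLC libraries and none in both SCLC libraries. These genes marked the CFP-sorted SCLCs beside the Sertoli genes above, and their part in the other differences was not tested.

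Endoderm also lays down basement membrane, so the list of its genes is not particular to testicular soma. Basement membrane gave the largest difference by amount among the lists grouped as somatic. Its 26 listed genes had a summed level of 55983 and 55349 CPM in SCLCs and 3871 and 3719 CPM in tod-PGCLCs, and 15 of 24 tested members were higher in SCLCs against 1 in tod-PGCLCs (median 1.37). Col4a1, the alpha1 chain of type IV collagen, had 508297 and 546429 counts against 1692 and 2132 (8.19 ± 0.21). Col4a2, its partner chain, had 254050 and 268620 against 1044 and 1205 (7.95 ± 0.17). Both lie on chromosome 8, whose median log2 difference was 0.56. Lama1, the laminin chain of the first basement membranes, had 140105 and 145920 counts against 1848 and 1532 (6.49 ± 0.15), and Sparc, a collagen-binding protein on chromosome 11, had 193834 and 233333 against 7277 and 5916 (5.10 ± 0.15). The 2 SCLC libraries lay close together for all 4 genes. Lama3, a laminin chain of epithelia, was the single member higher in tod-PGCLCs, with 254 and 138 counts against 1356 and 1036 (-2.50 ± 0.33). Epithelial junction genes were divided, with 5 of 18 higher in SCLCs and 3 higher in tod-PGCLCs. Ocln, which encodes occludin, had 1753 and 2692 counts against 315 and 302 (2.92 ± 0.19), and Cldn5, an endothelial claudin on chromosome 16, had 16 and 6 against 257 and 263 (-4.45 ± 0.44).

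Among the 5 protein-coding genes with the largest fitted increases in SCLCs, 3 are genes of the trophoblast, Tpbpa, Prl2a1 and Prl2c5. Tpbpa, a product of the spongiotrophoblast, had 927 and 2155 counts in SCLCs and none in tod-PGCLCs, at least 491-fold higher against 3 counts per library and at least 315-fold from SCLC replicate 1 alone. Prl2a1 and Prl2c5, prolactin-like hormones of the placenta, had 302 and 1062 and 149 and 512 counts in SCLCs and none in tod-PGCLCs, at least 216-fold and 105-fold higher, and at least 103-fold and 50.7-fold from SCLC replicate 1 alone. All 3 had more counts in SCLC replicate 2 than in replicate 1, and members of the prolactin family are similar enough that their counts are uncertain. The other 2 of the 5 were Habp2, a plasma protease that binds hyaluronan, with 8124 and 10443 counts against 2 and 3 (scaled ratio 3613, 95% counting interval 1548 to 11130), and Pcdhb13, a clustered protocadherin with close paralogues, with 324 and 528 against none. Of 15 tested trophectoderm genes 10 were higher in SCLCs and 1 in tod-PGCLCs (median 2.07). Krt8, a keratin of simple epithelia, had 8997 and 12276 counts against 1481 and 2135 (2.63 ± 0.22). Cdx2, which specifies trophectoderm, had 107 and 306 against 11 and 63 (2.52 ± 0.79), a call lost without SCLC replicate 2 (1.67, edgeR adjusted p = 0.083) or without tod-PGCLC replicate 1 (1.74, 0.063). Eomes, a partner of Cdx2, had 161 and 251 against 441 and 483 and was higher in tod-PGCLCs (-1.09 ± 0.23), a call lost without SCLC replicate 1 (-0.86) or without tod-PGCLC replicate 2 (-1.01, edgeR adjusted p = 0.053).

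**Figure D3:**
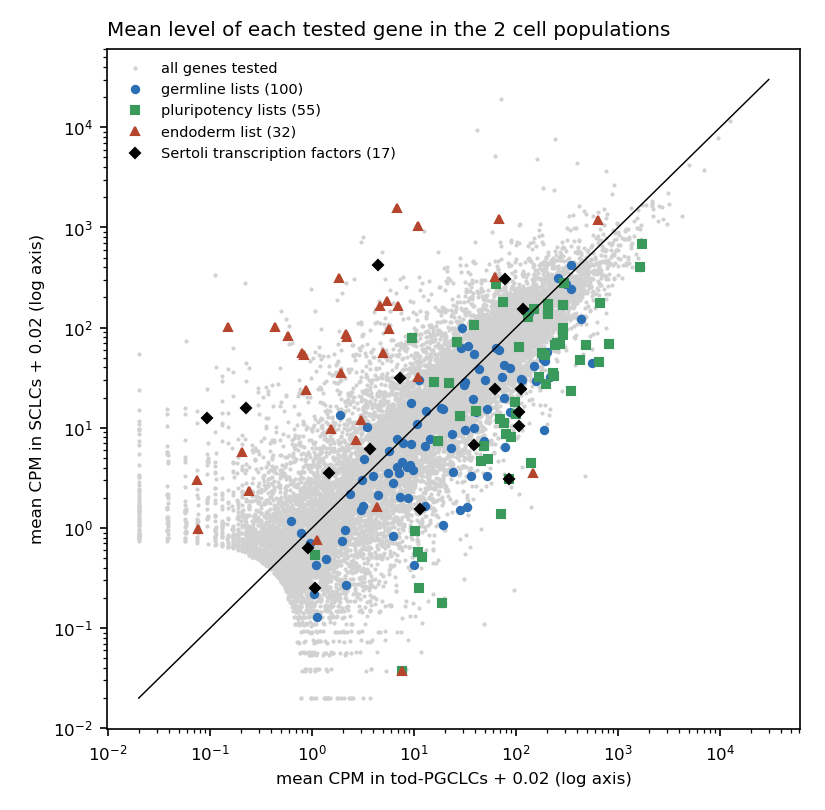
Mean CPM of each of the 16786 tested genes in tod-PGCLCs (x axis) and SCLCs (y axis), both on log axes with 0.02 CPM added, with a line at equal levels. Red triangles (32 endoderm genes) lie mostly above the line, blue circles (100 germline genes) and green squares (55 pluripotency genes) mostly below it, and black diamonds (17 Sertoli and genital ridge factors) on both sides.

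Genes of germ cell specification leaned to the tod-PGCLCs. Of 22 tested members 11 were higher in tod-PGCLCs and 2 in SCLCs (median -1.25). Prdm1, the repressor of the somatic programme and the reporter used for sorting, had 308 and 217 counts in SCLCs and 4919 and 5140 in tod-PGCLCs (-4.16 ± 0.22, edgeR adjusted p = 6.4e-05). Its counts followed the gate. Prdm14, which restores pluripotency genes in germ cells, had 254 and 106 against 1403 and 1200 (-2.74 ± 0.41). Tfap2c, another factor of the specification circuit, had 1298 and 1905 against 5100 and 5869 (-1.70 ± 0.17). These 3 factors were all present in SCLCs at lower counts. T, the brachyury factor of the primitive streak, had 2 and 7 against 286 and 716 (-6.69 ± 0.71). Dppa3, a maternal and germ cell factor that protects methylation marks, had 1301 and 440 against 4252 and 4820 (-2.26 ± 0.49), and Dnd1, an RNA-binding protein needed for germ cell survival, had 276 and 129 against 1049 and 1576 (-2.59 ± 0.42). SCLC replicate 1 was the higher SCLC library for Dppa3 and Dnd1, and no library of one group overlapped the other.

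Several familiar germ cell genes were not called. Kit, the receptor for stem cell factor, had 9218 and 7894 counts in SCLCs and 7205 and 6843 in tod-PGCLCs. Its difference (0.38 ± 0.13, edgeR adjusted p = 0.049) passed the p limit but was below the fold limit. Nanos3, a translational repressor on chromosome 8 that keeps migrating germ cells alive, had 56 and 33 against 60 and 109 (-0.83 ± 0.46, edgeR adjusted p = 0.16). It was called higher in tod-PGCLCs only without SCLC replicate 1 (-1.34, adjusted p = 0.044 by edgeR). Rhox6 and Rhox9, homeobox genes of the X chromosome, were the members higher in SCLCs, with 2052 and 3454 against 877 and 715 and with 1156 and 2524 against 949 and 890. The Rhox9 call (1.07 ± 0.30) was lost without SCLC replicate 2 (0.49), without tod-PGCLC replicate 1 (1.08, edgeR adjusted p = 0.055) or 2 (1.04, 0.076), with a replicate block (0.99) and under scaling by library totals (0.94). Of the surface markers named for the gate, Fut9, which makes the SSEA1 epitope, had 241 and 106 counts against 2281 and 1935 (-3.49 ± 0.39), and Itga6, which encodes CD49f, had 4285 and 3715 against 6245 and 4751 (-0.36 ± 0.16) and was not called.

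Later germline genes followed in part. Of 19 tested genes of late primordial germ cells and gonocytes 7 were higher in tod-PGCLCs and 1 in SCLCs, and of 18 piRNA and RNA granule genes 10 and 1. Ddx4, the helicase known as MVH, had 772 and 698 counts in SCLCs and 885 and 792 in tod-PGCLCs, and the difference was -0.10 ± 0.15 (edgeR adjusted p = 0.59). Dazl, an RNA-binding protein that licenses germ cells for sexual differentiation, had 1606 and 666 against 5351 and 2778 (-1.72 ± 0.49), a call lost without tod-PGCLC replicate 1 (-1.20, edgeR adjusted p = 0.072). Ddx4 counts were thus close in all 4 libraries, whereas the Dazl replicates lay apart within both groups. Mael, a component of the piRNA granule, had 128 and 71 against 785 and 523 (-2.61 ± 0.36). Piwil4, the nuclear PIWI protein that directs methylation of transposons, had 14 and 8 against 340 and 199 (-4.50 ± 0.45). Tex19.1, which protects germ cells from transposons, had 1076 and 1518 against 5293 and 5070 (-1.92 ± 0.14), and it lies on chromosome 11. Tdrd7, a tudor protein of RNA granules that the lens also uses, was the piRNA list's exception, with 1588 and 1871 against 770 and 784 (1.24 ± 0.11).

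Promoters of 2 of these genes are shown for the palindrome CACGTG, an E-box that the MAX and MGA partners of the PRC1.6 complex recognise at germline genes. The palindrome reads the same on both strands. RefSeq promoter windows ran from 250 bases before to 50 after a gene's start. The palindrome stood in a window of 23 of the 84 germline genes that had one, of 113 listed, and in 8.09% of all 27025 genes with a window (7.15% of 32851 windows). Of those 23 genes 5 were higher in tod-PGCLCs, 1 was higher in SCLCs, 16 were not called and 1 was not tested, so most genes with the palindrome did not pass the limits. The windows, on GRCm38.p6 and the minus strand, are chr1:166238695-166238994 for Mael and chr1:55363704-55364003 for Boll, a relative of Dazl with 6 and 8 counts in SCLCs and 63 and 53 in tod-PGCLCs. A match of these letters is a description of the sequence and no evidence that a factor binds there. The palindrome, in capitals, starts 223 bases before the start of Mael and 9 before that of Boll.
Mael: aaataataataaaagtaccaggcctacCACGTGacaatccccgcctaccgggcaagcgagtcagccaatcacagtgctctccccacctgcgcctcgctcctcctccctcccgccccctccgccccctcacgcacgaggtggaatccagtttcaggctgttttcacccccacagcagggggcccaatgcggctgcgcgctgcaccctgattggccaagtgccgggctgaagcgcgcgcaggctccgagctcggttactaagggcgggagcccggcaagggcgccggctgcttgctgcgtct
Boll: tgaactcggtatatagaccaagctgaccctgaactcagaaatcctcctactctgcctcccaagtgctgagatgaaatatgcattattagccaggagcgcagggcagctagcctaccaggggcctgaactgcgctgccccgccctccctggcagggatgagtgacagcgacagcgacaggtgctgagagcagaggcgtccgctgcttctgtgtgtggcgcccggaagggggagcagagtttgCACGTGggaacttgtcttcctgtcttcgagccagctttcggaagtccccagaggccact
The 13 tested genes of PRC1.6 itself held no call by edgeR or DESeq2, and 8 had an unadjusted edgeR p under 0.05. Max had 2354 and 2449 counts against 2374 and 2230, and Pcgf6, its defining subunit, had 1729 and 1610 against 2371 and 2390.

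Meiotic genes were divided, with 9 of 24 higher in tod-PGCLCs, 2 higher in SCLCs and 13 not called (median -0.87). Stra8, the retinoic acid target that opens meiosis, had 1642 and 654 counts in SCLCs and 1966 and 2143 in tod-PGCLCs (-0.72 ± 0.42, edgeR adjusted p = 0.18). Sycp3, of the synaptonemal complex, had 109 and 83 against 238 and 149 (-0.91 ± 0.33, edgeR adjusted p = 0.051). Both were called higher in tod-PGCLCs without SCLC replicate 1, at -1.64 and -1.20, and Sycp3 also under scaling by library totals (-1.03). Ccnb1ip1, a factor of crossover formation, had 44 and 38 against 783 and 726 (-4.11 ± 0.21), and Meioc, a chromosome 11 gene that holds cells in meiotic prophase, had 120 and 60 against 964 and 969 (-3.32 ± 0.35). The exceptions were Prdm9, which places recombination sites, with 255 and 308 against 96 and 92, and Syce1, with 820 and 831 against 326 and 277. Among genes of spermatogonial stem cells 8 of 17 were higher in tod-PGCLCs and 1, Zbtb16, was higher in SCLCs with 304 and 438 counts against 44 and 57 (2.95 ± 0.27). Etv5, a GDNF-responsive factor on chromosome 16, had 1584 and 838 against 15338 and 14559 (-3.52 ± 0.34), and Lin28b, which blocks let-7, had 51 and 37 against 892 and 912 (-4.26 ± 0.24).

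Pluripotency genes separated the populations in a larger share of members than germline genes did, with 44 of 55 called against 52 of 100. Core factors were higher in tod-PGCLCs for 12 of 15 members, with none higher in SCLCs. Sox2 had 2687 and 1020 counts in SCLCs and 22396 and 21773 in tod-PGCLCs (-3.46 ± 0.47), and Nanog had 1838 and 619 against 17846 and 17131 (-3.71 ± 0.52). Pou5f1, which encodes OCT4, had 3162 and 2263 against 7860 and 7589 (-1.41 ± 0.20). SCLC replicate 1 was the higher of the SCLC libraries for all 3, and neither replicate overlapped the tod-PGCLCs. Of naive factors 12 of 19 were higher in tod-PGCLCs, led by Nr0b1 above and by Fgf4 with 339 and 99 counts against 2951 and 1942, and Esrrb had 2328 and 1301 against 13888 and 12510 (-2.75 ± 0.31). The 4 naive genes higher in SCLCs included Stat3 and Socs3, the transducer and the feedback inhibitor of LIF signalling. Klf4 had 7263 and 8001 counts against 1883 and 1588 (2.22 ± 0.10), Tbx3 had 2528 and 3381 against 1194 and 924, and Socs3 and Stat3, both on chromosome 11, had 2102 and 1827 against 810 and 628 and 4467 and 5569 against 2056 and 1939.

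Formative and primed epiblast genes, which mark the state that epiblast-like cells pass through, were higher in tod-PGCLCs for 15 of 21 members and in SCLCs for 1 (median -2.72). Otx2, a homeobox factor of the epiblast, had 41 and 34 counts against 2159 and 1735 (-5.60 ± 0.20). Fgf5, the usual epiblast marker, had 4 and 9 against 224 and 381 (-5.44 ± 0.49). Fst, an activin antagonist, was the exception with 2408 and 1976 against 163 and 354 (3.17 ± 0.37). Neural genes also leaned this way, 7 of 9 members being higher in tod-PGCLCs and none in SCLCs, among them Stmn2 with 77 and 41 counts against 2998 and 2753. The summed level of the neural list was 36.5 and 28.9 CPM in SCLCs and 199 and 187 CPM in tod-PGCLCs, and its part in other results was not tested. Blood and endothelium genes were divided, with 4 of 8 tested members higher in tod-PGCLCs and 2 in SCLCs (median -1.30). Tek, an angiopoietin receptor, had 148 and 116 counts against 871 and 1019 (-2.75 ± 0.22), and Tie1, its relative, had 10 and 3 against 165 and 101 (-4.23 ± 0.56). Cdh5, the cadherin of endothelial junctions on chromosome 8, had 784 and 2043 against 36 and 18 (5.77 ± 0.55) and ran the opposite way. The summed level of this list was 122 and 113 CPM in SCLCs and 324 and 272 CPM in tod-PGCLCs, with 2 of its 13 members at 0 in both SCLC libraries and 3 at 0 in both tod-PGCLC libraries, and its part in other results was not tested.

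Signals that pass between soma and germ cells in a testis were examined as ligands and receptors. Kitl, the stem cell factor that Sertoli cells supply to Kit-bearing germ cells, had 156 and 297 counts in SCLCs and 450 and 631 in tod-PGCLCs (-1.19 ± 0.32, edgeR adjusted p = 0.018). The Kitl call was lost without SCLC replicate 1 (-0.85) or without tod-PGCLC replicate 2 (-0.90, adjusted p = 0.11 by edgeR). Neither ligand nor receptor was called higher in the population that classically bears it. Gdnf, the Sertoli factor for spermatogonial stem cells, was too low to test, with 9 and 12 counts against 2 and 1. Its coreceptor Gfra1 had 170 and 97 counts in SCLCs and 80 and 93 in tod-PGCLCs and was not called, except without SCLC replicate 2 (1.13, edgeR adjusted p = 0.0092). Its kinase Ret had 62 and 49 against 203 and 194 (-1.74 ± 0.27). The 3 genes of the chemokine CXCL12 and its receptors held no call by edgeR or DESeq2, and 1 had an unadjusted edgeR p under 0.05.

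Bone morphogenetic protein (BMP) ligands were split between the populations. Bmp4, the inducer of germ cells, had 72 and 73 counts in SCLCs and 1179 and 1030 in tod-PGCLCs (-3.84 ± 0.17). Bmp2 had 837 and 1008 against 130 and 234 (2.42 ± 0.29), and Bmp6 had 508 and 518 against 130 and 120 (2.12 ± 0.18). Bmp8b, which acts with BMP4 in germ cell induction, had 14 and 29 against 64 and 80 (-1.67 ± 0.41), a call lost without tod-PGCLC replicate 2 (-1.48, edgeR adjusted p = 0.076). Bmp2 and Bmp6 were thus higher in SCLCs, and Bmp4 and Bmp8b in tod-PGCLCs. The receptor Bmpr1b had 6 and 1 against 97 and 103 (-4.70 ± 0.59), while Bmpr2 had 3140 and 3769 against 1613 and 1302, and the target Id2 had 597 and 958 against 212 and 180. In all, 8 of 20 tested BMP genes were higher in SCLCs and 4 higher in tod-PGCLCs. Of 10 nodal and activin genes 5 were higher in tod-PGCLCs and 2 in SCLCs. Nodal had 180 and 83 counts against 1532 and 1334 (-3.34 ± 0.37), its coreceptor Tdgf1 had 890 and 388 against 12034 and 6555 (-3.74 ± 0.49), and its inhibitor Lefty2 had 150 and 93 against 3862 and 3733 (-4.87 ± 0.25).

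Hedgehog ligands were split between the populations. Ihh, a ligand of visceral endoderm, had 2178 and 3567 counts in SCLCs and 3 and 19 in tod-PGCLCs (8.08 ± 0.49). The target and effector Gli1 had 75 and 32 against 937 and 865 (-3.97 ± 0.39), and the receptor Ptch1, which hedgehog induces, had 2290 and 1739 against 7595 and 6287 (-1.68 ± 0.19). Shh, another ligand, was on the side of these targets and had 5 and 2 against 52 and 194 (-5.01 ± 0.91). Of 12 tested members 6 were higher in tod-PGCLCs and 1 in SCLCs. Fibroblast growth factor genes were higher in tod-PGCLCs for 10 of 18 members and in SCLCs for 5, with the receptor Fgfr4 at 1404 and 2233 counts against 111 and 57 (4.51 ± 0.33) and the ligand Fgf17 at 2 and 7 against 264 and 259 (-5.74 ± 0.43). NOTCH genes were higher in tod-PGCLCs for 7 of 12 members, led by the receptor Notch4 with 44 and 29 counts against 952 and 861, and the ligand Dll1 was the 1 member higher in SCLCs, with 691 and 504 against 266 and 254 (1.30 ± 0.23), a call lost without SCLC replicate 1 (0.97).

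Genes of retinoic acid handling leaned to SCLCs, with 10 of 18 higher there and 4 higher in tod-PGCLCs (median 1.48). Stra6, the cell-surface importer of retinol, had 1337 and 1259 counts in SCLCs and 98 and 96 in tod-PGCLCs (3.83 ± 0.16). Rbp4, which carries retinol in plasma, had 1740 and 3074 against 48 and 66 (5.47 ± 0.31), and Dhrs3, which reduces retinal back to retinol, had 829 and 734 against 37 and 33 (4.57 ± 0.22). Enzymes that make retinoic acid were divided. Aldh1a1 had 75 and 160 against 5 and 5 (4.59 ± 0.52), whereas Aldh1a2 had 66 and 52 against 303 and 490 (-2.66 ± 0.34), and the receptor Rarg had 383 and 237 against 1591 and 1189 (-2.06 ± 0.29). Among insulin-like growth factor genes 7 of 13 were higher in SCLCs and 3 in tod-PGCLCs. Igf2, an imprinted growth factor, had 14215 and 23498 counts against 2630 and 2796 (2.87 ± 0.21), and Igfbp2 had 3870 and 1573 against 22319 and 18494 (-2.79 ± 0.44).

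Imprinted genes, whose expression depends on the parent of origin, were called for 24 of 30 members, 14 higher in SCLCs and 10 higher in tod-PGCLCs (median 0.63). H19, the maternally expressed neighbour of Igf2, had 75795 and 129247 counts in SCLCs and 21209 and 20179 in tod-PGCLCs (2.38). The maternally expressed RNA Meg3 had 32206 and 28350 against 4480 and 4877, and the paternally expressed Dlk1 beside it had 1020 and 728 against 87 and 98 (3.34 ± 0.27). Genes of both parental classes were therefore higher in SCLCs at these loci. Grb10, on chromosome 11, had 284 and 240 counts against 2121 and 2310 (-2.99 ± 0.16), and Zdbf2 had 431 and 405 against 2986 and 3155 (-2.79 ± 0.13). Among 21 tested genes of DNA methylation and its removal 6 were higher in SCLCs and 5 in tod-PGCLCs. Tet1, an oxidase of methylated cytosine, had 2717 and 1773 against 16542 and 11927 (-2.56 ± 0.27). Dnmt3b, a de novo methyltransferase, had 1366 and 1751 against 4221 and 5448 (-1.56 ± 0.16). Uhrf1, which guides maintenance methylation, had 3514 and 3155 against 8817 and 7923 (-1.23 ± 0.12). Dnmt3l, a cofactor of the de novo enzymes, had 2768 and 1376 against 5007 and 3819 (-0.98 ± 0.35, edgeR adjusted p = 0.051) and passed without SCLC replicate 1 (-1.66), with a replicate block (-1.07) and under scaling by library totals (-1.10).

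None of 25 mitosis genes was called by edgeR or DESeq2, although 10 had an unadjusted edgeR p under 0.05, while 8 of 30 DNA replication genes were higher in tod-PGCLCs and none in SCLCs (median -0.68). Mcm3, a subunit of the replicative helicase, had 6114 and 5663 counts against 17969 and 17390 (-1.49 ± 0.11). Of 14 cell cycle inhibitors and D cyclins 5 were higher in SCLCs and 3 in tod-PGCLCs, with log2 differences from -2.71 to 2.29. Ccnd2, a D cyclin, had 2148 and 2286 against 547 and 531 (2.13 ± 0.10), and Ccnd1, another, had 133 and 153 against 1243 and 747 (-2.71 ± 0.26). The cell cycle inhibitor Cdkn1b had 2452 and 2081 against 527 and 461 (2.29 ± 0.16), and Trp53, which encodes p53 and lies on chromosome 11, had 2213 and 1747 against 12579 and 12577 (-2.57 ± 0.17). Genes that respond to stress and to cell dissociation were all higher in SCLCs, 9 of 9 tested. Atf3 had 1439 and 1948 counts against 109 and 104 (4.07 ± 0.16), and Jun had 3113 and 3371 against 783 and 624 (2.29 ± 0.12). Their summed level was 638 and 679 CPM in SCLCs and 212 and 202 CPM in tod-PGCLCs, and their part in the other results was not tested.

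At the tod-PGCLC end, the 5 protein-coding genes with the largest fitted decreases in SCLCs had no count in either SCLC library. C1s1, a complement protease, had 100 and 101 counts in tod-PGCLCs, at least 34.4-fold higher against 3 counts per library. Gm12666 had 89 and 79 (at least 28.7-fold), and Cdh20, a type II cadherin, had 75 and 60 (at least 23.0-fold). Klhl4 had 22 and 107 (at least 22.3-fold, and at least 7.39-fold from tod-PGCLC replicate 1 alone), and Pramel6, of a multicopy family whose counts are uncertain, had 75 and 49 (at least 21.1-fold).

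Chromosomes 8, 11 and 16 were kept apart because the medians of their genes were shifted. Position along each chromosome was not examined. The median log2 difference of the genes of chromosome 8 was 0.56, a fold of 1.48 in favour of SCLCs. Chromosome 11 had a median of -0.53 and chromosome 16 one of -0.53. The medians of the other 16 autosomes lay between -0.12 and 0.12, and that of the X chromosome was -0.14. Over the 4 pairings of an SCLC with a tod-PGCLC library, the shift ranged from 0.51 to 0.58 for chromosome 8, from -0.53 to -0.50 for chromosome 11 and from -0.56 to -0.52 for chromosome 16, so each was larger than the spread between libraries. With 2 libraries against 2 the exact permutation test cannot give a two-sided p below 0.333, and none was run.

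Calls on these chromosomes followed the medians. On chromosome 8, 284 of 867 tested genes (32.8%) were higher in SCLCs and 70 (8.07%) in tod-PGCLCs. On chromosome 11, 153 of 1360 (11.2%) were higher in SCLCs and 385 (28.3%) in tod-PGCLCs, and on chromosome 16, 56 of 507 were higher in SCLCs and 158 (31.2%) in tod-PGCLCs. Outside the 3 chromosomes 5127 of 14052 genes were called (36.5%), 2762 higher in SCLCs (19.7%) and 2365 higher in tod-PGCLCs (16.8%). Of the tested members, 27 of 122 somatic and 14 of 100 germline genes lay on the 3 chromosomes. When the chromosome median was taken off before the fold limit, 5870 of the 6233 calls held in the same direction. Only genes of the 3 chromosomes were changed by this step, and they held 1106 of the 6233 calls. The other 5127 calls could not change, so every lost call was among the 1106.

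Set against the mean of the 2 tcESC libraries, the shifts belonged to different populations. On chromosome 8 (632 genes with a mean count above 100) the SCLC libraries were at 0.42 and 0.45, the tc;Sf1ESC libraries at 0.49 and 0.50 and the tod-PGCLC libraries at -0.14 and -0.11. On chromosome 16 (368 genes) SCLCs were at -0.61 and -0.55, tc;Sf1ESCs at -0.48 and -0.48 and tod-PGCLCs at -0.03 and -0.03. On chromosome 11 (958 genes) tod-PGCLCs were at 0.42 and 0.46 and SCLCs at -0.08 and -0.10. The chromosome 8 and 16 shifts were thus present in the undifferentiated parent line of the SCLCs, and the chromosome 11 shift was found in the tod-PGCLCs, whose own parent line was not among the libraries. Chromosome 6 (539 genes) was at -0.38 and -0.42 in SCLCs and -0.40 and -0.37 in tod-PGCLCs, so it gave no shift between them. Whether chromosome copy number differed was not tested.

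**Figure D4:**
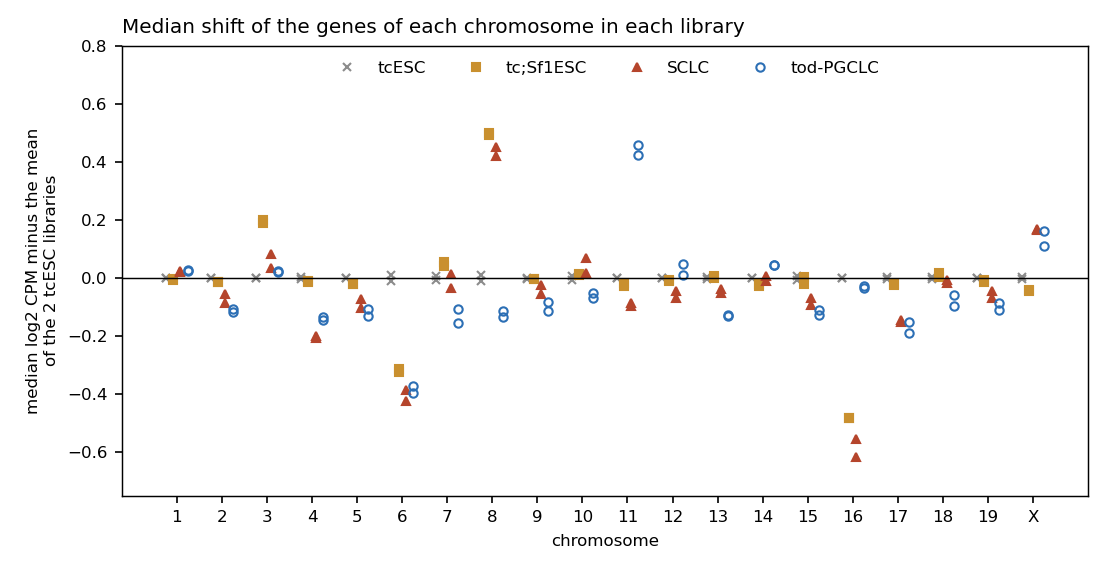
Median over genes of log2 CPM minus the mean of the 2 tcESC libraries (y axis) for each chromosome (x axis), with each library of the series as 1 point. SCLCs and tc;Sf1ESCs stand near 0.5 on chromosome 8 and near or below -0.5 on chromosome 16, and tod-PGCLCs at 0.42 and 0.46 on chromosome 11.

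The 2 SCLC libraries differed from each other in several lists. For the late germ cell and gonocyte list the median log2 difference of SCLC replicate 1 minus replicate 2 was 0.86, and for PGC specification it was 0.54. Core pluripotency genes gave 0.54. The endoderm list gave -0.60 and the trophectoderm list -0.57, against 0.02 over all genes tested. The medians of late germ cell, specification, core pluripotency, endoderm and trophectoderm genes in tod-PGCLCs were 0.26, -0.14, 0.01, -0.23 and -0.10. The somatic lists did not move as one between the SCLC libraries, since gonadal stroma gave 0.53, Sertoli and genital ridge factors 0.25, basement membrane 0.05 and Sertoli products -0.22. Germline calls higher in tod-PGCLCs numbered 41 to 56 with any single library left out, against 45 with all.

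**Figure D5:**
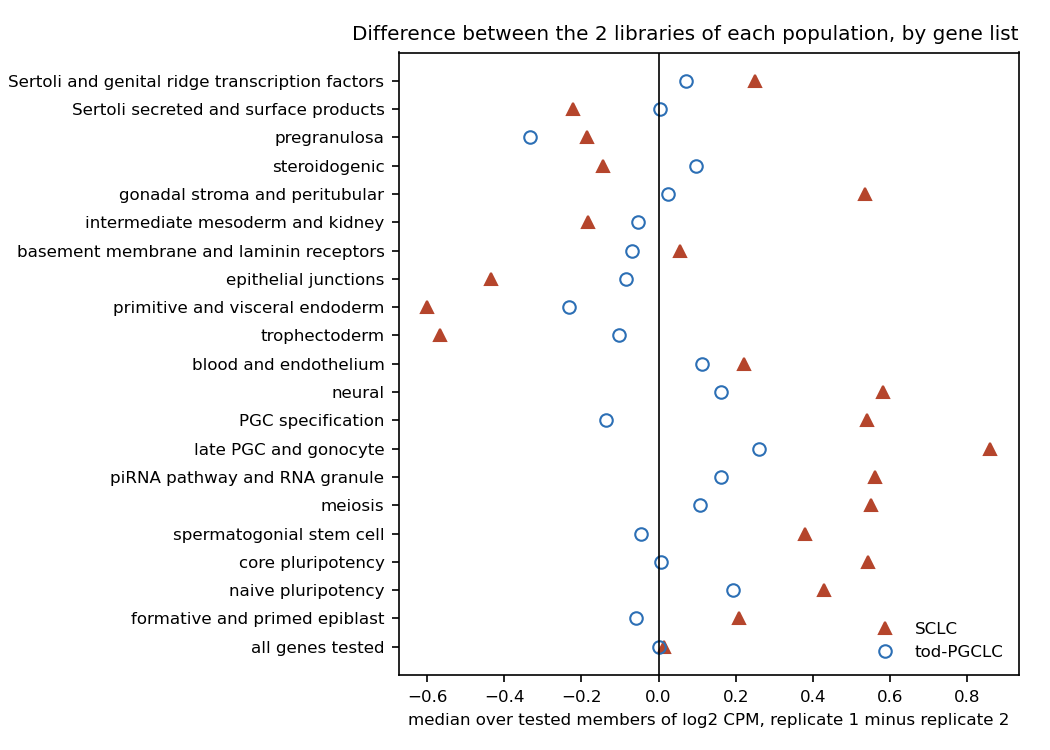
Median over the tested members of each list of the log2 CPM difference between replicate 1 and replicate 2 (x axis), for SCLCs (triangles) and tod-PGCLCs (circles). In SCLCs the germline lists stand to the right, up to 0.86, and the endoderm and trophectoderm lists to the left, at -0.60 and -0.57.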

How the data were processed

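Poly-A RNA of SCLCs (day 12) and tod-PGCLCs (day 6) was sequenced as strand-specific libraries, and the authors trimmed reads with Trim Galore, aligned them to GRCm38 with STAR 2.4.0 and counted them per gene with HTSeq. The deposited values are raw counts, 1 file per sample. The strand setting of the counting is not given in the sources used here, so overlapping and antisense genes are uncertain. Rows that name no gene took 35.6% to 38.5% of reads in these 4 libraries and were left out. Names and positions came from GENCODE M21 (45229 of 46078 IDs matched). Libraries were fitted with edgeR 4.0.16 in R 4.3.3 (TMM, quasi-likelihood test, group as the only term), after a test on simulated data. DESeq2 1.42.0, other scalings and filters, and each library left out were alternatives. With 2 libraries a group, p-values measure the spread between these samples, and intervals on counts cover counting error only.

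Of 639 list symbols, 634 matched. Members and lists were chosen with earlier results of these data known. Named genes were a fixed set, up to 4 called genes with the largest fold per list and direction with a mean of at least 1 CPM, and the 5 largest changes each way among protein-coding genes. Bmpr2, Cyp17a1, Dab2, Fshr, H19, Max, Meg3, Pcgf6, Sox17, Sry and Xist fall outside that rule and were chosen after their values were seen. Counting intervals of ratios are exact (Clopper-Pearson, 95%). The list summaries are counts and medians, with no set test. The result of 1 list member is not reported here.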

Additional observations from a re-analysis of the deposited data

How the results depend on the processing

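Of 216 named genes tested, 34 changed their call under 1 or more of the 15 alternatives, and none reversed direction while called. Tested against a 2-fold change, 3814 genes were called, 2106 higher in SCLCs and 1708 higher in tod-PGCLCs, with 3153 outside chromosomes 8, 11 and 16. This test is stricter by construction. DESeq2 called 5664 genes. Scaling by library totals moved the median of all genes to -0.13 and the medians of chromosomes 8, 11 and 16 to 0.44, -0.66 and -0.66. Chromosome 16 was at -0.55 with a mean count above 100 and -0.55 with protein-coding genes only.

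With each library left out in turn, 5264 to 6596 genes were called, 2805 to 3401 higher in SCLCs and 2450 to 3195 higher in tod-PGCLCs, with 4314 to 5445 outside the 3 chromosomes. Somatic lists held 69 to 79 calls, germline lists 47 to 62, pluripotency lists 43 to 45 and endoderm 29 to 30. Chromosome 8 ranged from 0.53 to 0.58, chromosome 11 from -0.54 to -0.51 and chromosome 16 from -0.56 to -0.51. A library left alone in its group was assumed to vary like the other group.

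With the replicate number as a block, 6378 genes were called, 3300 higher in SCLCs and 3078 higher in tod-PGCLCs. Nothing in the labels pairs libraries across groups, and deviations of same-numbered libraries correlated at 0.06.  With 2 libraries a group, differences close to 2-fold were not firmly placed, and the cause of each lost call was not tested.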

Other observations

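Other gene families were chosen after their values were seen. Hox genes give cells their position along the body axis. Of 39 Hox genes 24 were tested, with 18 higher in SCLCs and 1 in tod-PGCLCs. Hoxc9 had 132 and 128 counts in SCLCs and 0 and 1 in tod-PGCLCs, and Hoxa10 had 128 and 121 against 1 and 3. Members like these 2 reached the count limit through SCLCs, which tilts the share. Of 45 H2 genes of the major histocompatibility complex, which present peptides to T cells, 22 were tested, with 8 higher in SCLCs and 6 in tod-PGCLCs. The classical H2-K1 had 22137 and 17145 counts against 2064 and 2762 (3.12 ± 0.23), and H2-D1 had 12567 and 12235 against 844 and 1198 (3.69 ± 0.20). Of 42 Rhox genes 15 were tested, with 12 higher in tod-PGCLCs and 2 in SCLCs, so Rhox6 and Rhox9 were exceptions among the tested members. All 4 tested Zscan4 genes, which mark a brief 2-cell-like state of ESC cultures, were higher in SCLCs. Of 25 prolactin family genes 10 were tested and 9 were higher in SCLCs. Of 13 pregnancy-specific glycoproteins 5 were tested and all were higher in SCLCs. The lowest fitted log2 differences in the 2 families were 7.45 and 4.63. Genes so low in tod-PGCLCs reach the count limit through SCLCs, so these shares were largely set by the filter. Members of these families share sequence, so their single counts are uncertain. No mitochondrial gene of 11 was called by edgeR or DESeq2, and 2 had an unadjusted edgeR p under 0.05.

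A pair of processed pseudogenes, chosen for their values, were high only in the 2 tod-PGCLC libraries among the 8 of the series. Rps13-ps1, on chromosome 8, had 1313 and 1308 counts in tod-PGCLCs, while the tcESC libraries held 0 and 1, both tc;Sf1ESC libraries 0, and the SCLC libraries 2 and 3. Gm11942 had 2768 and 2423 counts in tod-PGCLCs, and its counts in the other libraries were 7 and 5 (SCLCs), 5 and 9 (tcESCs) and 6 and 11 (tc;Sf1ESCs). The tod-PGCLCs are the only libraries from the Prdm1-gfp line, so line, cell type and culture cannot be told apart.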
